A study of Mus musculus with 36 samples.

Results

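The ribosome-protected fragments (RPFs) of the FMR1 KO pellet were compared with those of the WT pellet under the low nuclease preparation. The members are the 6 pellet libraries made without the M-protocol, 3 from WT and 3 from FMR1 KO mice, of 36 libraries in the whole series. They are given by their labels for genotype, fraction and treatment. WT animals were C57BL/6 mice and FMR1 KO animals carried no functional Fmr1 gene, and all were 5 days old. Each preparation used the whole brains of 10 mice, frozen after dissection. The tissue was homogenized in buffer with 2.5 mM MgCl2, and the ribosomes that ran through the sucrose gradient to the bottom of the tube, the fraction labelled Granule, were digested with a small amount of RNase I in the cold. The standard preparation, labelled M-protocol, used 10 mM MgCl2 and stronger digestion at room temperature. Fraction 5/6 of such gradients held clusters of ribosomes that did not pellet, labelled Polysome, and whole brain homogenate gave the RNA-seq libraries.

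FMRP, the product of Fmr1, is an RNA-binding protein that associates with translating ribosomes, and its loss causes fragile X syndrome. Neurons carry mRNAs in RNA granules, dense clusters that contain ribosomes paused on their message, and these granules sediment to the pellet. An RPF is the stretch of mRNA that a ribosome shields from nuclease, so the RPFs counted on a gene report how many pelleted ribosomes sat on its mRNA, and not how fast they moved.

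Several features of the libraries bear on every value below. Total counts ran from 23634940 to 44696473 per library, with medians of 37212237 in WT and 29078589 in FMR1 KO. Cdk8, a gene whose counts were left out before normalization, took 3.55% to 5.31% of the counts here and 36.7% to 63.4% in the pellet and fraction 5/6 libraries of the standard preparation. FMR1 KO replicate 1 stood apart from the other libraries. It lay at 77.4 on the first principal component, which held 34.5% of the variance, while the other 5 lay between −40.9 and −1.44. The study describes the replicates as separate biological preparations, while the labels give no more than a replicate number. By the study's methods, the replicates of a group were joined after linker ligation and shared reverse transcription and PCR, so a genotype and its pool cannot be told apart. Because the tissue is whole brain, fewer cells of a type and less RNA per cell cannot be told apart either.

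Over all genes, libraries of different genotype were hardly farther apart than libraries of the same genotype. The mean distance between libraries of different genotype was 97.3 on the log2 scale and that between libraries of the same genotype was 95.3, a ratio of 1.02. In the exact permutation test over the 6 libraries the one-sided p was 0.2, and 3 libraries against 3 cannot give less than 0.1. The median log2 fold change of the 15263 protein-coding genes tested was 0.0043, and the median of its absolute value was 0.128.

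Fmr1 was the check of the labels and gave the smallest p of all genes. Its normalized count, in CPM, the reads of a gene relative to the library's total without Cdk8, with that total corrected by a TMM factor, was 59.3, 63.8 and 57.9 in the WT pellet and 7.57, 8.19 and 8.2 in the FMR1 KO pellet. The groups did not overlap, and the mean fell from 60.3 ± 3.05 to 7.98 ± 0.36 (SD, n = 3 each). The log2 fold change was −2.92 with a standard error of 0.088 (adjusted p = 6.9e-04, edgeR's quasi-likelihood test, Benjamini-Hochberg). Fmr1 lies at chrX:68678541-68717963 on the plus strand (GRCm38). RPFs on Fmr1 did not reach 0 in the FMR1 KO pellet, where 186, 227 and 297 reads were counted against 1451, 2663 and 2124 in WT. The whole brain RNA of the standard preparation held Fmr1 at 61.7, 61.0 and 69.8 CPM in WT and at 16.4, 17.5 and 17.9 CPM in FMR1 KO, so the transcript of the targeted gene was counted in both kinds of library.

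The paralogs of FMRP, which bind RNA through the same kinds of domain, did not pass the test. Fxr1 was at 61.1, 72.2 and 66.6 CPM in WT and at 85.3, 71.1 and 76.9 CPM in FMR1 KO, with a log2 fold change of 0.22. Fxr2 was at 60.6, 66.3 and 60.5 CPM in WT and at 77.6, 65.8 and 66.1 CPM in FMR1 KO, with a log2 fold change of 0.16. The genotypes overlapped for both.

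Besides Fmr1, 2 genes passed the threshold of an adjusted p under 0.05, so that 3 of 15263 genes (0.0197%) were lower in the FMR1 KO pellet. No gene (0%) passed with a higher value. At an unadjusted p under 0.05 there were 302 genes lower (1.98%) and 360 genes higher (2.36%), and DESeq2 called 57 genes higher and 32 lower on the same counts. With 1 library left out, edgeR called from 2 genes (without WT replicate 2) to 11 (without FMR1 KO replicate 3), and 9 without FMR1 KO replicate 1, of which 6 were higher. With the replicate number as a block in the fit, edgeR called 0 genes, and the adjusted p of Fmr1 was 0.081. The 3 FMR1 KO libraries lay wholly below the 3 WT libraries for 666 genes (4.36%) and wholly above them for 874 genes (5.73%).

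Ankrd6 encodes an ankyrin repeat protein of the Wnt and planar cell polarity pathways and lies at chr4:32804035-32950841 on the minus strand. Its CPM was 208, 258 and 167 in the WT pellet and 15.7, 15.7 and 15.4 in the FMR1 KO pellet. Every WT library was far above every FMR1 KO library, and the FMR1 KO libraries differed little among themselves. The mean fell from 211 ± 45.4 to 15.6 ± 0.18 (SD, n = 3 each), a log2 fold change of −3.76 with a standard error of 0.18 (adjusted p = 0.0057, edgeR quasi-likelihood test). Fmr1 and Ankrd6 passed whichever single library was left out. With the libraries of 1 replicate number left out of both genotypes, Ankrd6 passed in none of the 3 fits (adjusted p from 0.058 to 0.080, edgeR), and Fmr1 did not pass without replicate 3 (0.071).

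Adam12 encodes a membrane-anchored metalloprotease and lies at chr7:133883199-134232146 on the minus strand. Its CPM was 43.2, 42.1 and 45.9 in the WT pellet and 3.34, 5.74 and 3.81 in the FMR1 KO pellet. The mean fell from 43.7 ± 1.92 to 4.29 ± 1.27 (SD, n = 3 each), a log2 fold change of −3.35 with a standard error of 0.22 (adjusted p = 0.026, edgeR quasi-likelihood test). The groups were again widely separated, but the call did not pass when any single WT library or FMR1 KO replicate 3 was left out, with adjusted p from 0.077 to 0.185 in those 4 fits, nor without replicate 1 or 3 of both genotypes (0.096 and 0.301).

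In the standard pellet, Ankrd6 was at 7.19, 7.37 and 7.48 CPM in WT and at 6.00, 8.2 and 7.31 CPM in FMR1 KO, and Adam12 was at 0.99, 0.88 and 2.88 CPM in WT and at 2.1, 3.78 and 0.84 CPM in FMR1 KO. In the RNA-seq libraries the mean of Ankrd6 was 51.5 CPM and that of Adam12 was 8.25 CPM, with log2 fold changes of −0.17 and −0.39. In low nuclease fraction 5/6, Ankrd6 was at 116, 75.6 and 111 CPM in WT and at 24, 22.0 and 18.8 CPM in FMR1 KO. Ankrd6 was therefore lower in FMR1 KO in both low nuclease fractions, and near the same value in both genotypes of the standard pellet. Adam12 in fraction 5/6 was at 2.33, 3.27 and 4.32 CPM in WT and at 2.65, 4.37 and 2.92 CPM in FMR1 KO, close to its level in the FMR1 KO pellet.

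Interaction tests asked whether these genotype differences themselves differed. Between preparations, the genotype difference of 2 of 15035 genes (0.0133%) passed. The difference of Ankrd6 in the low nuclease pellet lay 3.74 log2 units below that in the standard pellet (log2 value −3.74, standard error 0.22, adjusted p = 1.3e-04, edgeR quasi-likelihood test). Ppil1, a peptidyl-prolyl isomerase of the spliceosome, was the other gene. It was at 15.1, 12.4 and 13.9 CPM in WT and 14.9, 10.9 and 14.8 CPM in FMR1 KO here, and at 13.0, 12.8 and 9.37 CPM in WT and 136, 74.3 and 84.0 CPM in FMR1 KO in the standard pellet. The genotypes of the low nuclease pellet thus overlapped for Ppil1, and the difference lay in the standard preparation.

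Between fractions of the low nuclease preparation, 3 of 15929 genes (0.0188%) passed the interaction test. Adam12 was one, its difference in the pellet lying below that in fraction 5/6 by a log2 value of −3.36 with a standard error of 0.39 (adjusted p = 0.045, edgeR quasi-likelihood test). Fblim1, which encodes the adhesion protein migfilin, was at 11, 11.9 and 8.04 CPM in the WT pellet and 9.64, 8.37 and 8.33 CPM in the FMR1 KO pellet. In fraction 5/6 it was at 350, 237 and 235 CPM in WT and at 16.7, 11.8 and 10.4 CPM in FMR1 KO. Spen, a large transcriptional repressor, was at 110, 119 and 90.5 CPM in the WT pellet and 122, 93.0 and 94.0 CPM in the FMR1 KO pellet, against 393, 282 and 285 CPM in WT and 55.9, 80.3 and 58.2 CPM in FMR1 KO in fraction 5/6. For Fblim1 and Spen the pellet libraries of the genotypes overlapped. Without FMR1 KO replicate 1, an alternative chosen after seeing the data, Ankrd6, Ppil1 and Fblim1 passed their interaction tests, and Adam12 and Spen did not (both adjusted p = 0.0998, edgeR). With each replicate number left out of every group in turn, Ankrd6 passed each time and Fblim1 passed only without replicate 1. Ppil1, Spen and Adam12 passed in none of these fits.

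The genes next in order of p did not pass the test and are given by their values. Iffo1, a gene of the intermediate filament family, was at 9.82, 9.67 and 9.63 CPM in WT and at 21.9, 19.4 and 22.1 CPM in FMR1 KO (log2 fold change 1.12, standard error 0.093, adjusted p = 0.070, edgeR quasi-likelihood test). Hist1h4m, a histone H4 gene, had 0, 1 and 2 reads in WT and 51, 43 and 93 reads in FMR1 KO. Scaled for depth, its summed counts of 3 and 187 had a ratio of 72.4 (95% exact interval 24.4 to 354, counting error only, adjusted p = 0.070 in the edgeR test). The RNA-seq libraries showed the same order for Hist1h4m, with 0.36, 0.99 and 1.21 CPM in WT and 19.5, 34.5 and 17.8 CPM in FMR1 KO.

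Other higher values came from genes of several functions. Fdft1, the squalene synthase of cholesterol synthesis, was at 142, 143 and 133 CPM in WT and 901, 504 and 462 CPM in FMR1 KO (log2 fold change 2.16, adjusted p = 0.285, edgeR). Sct, which encodes the hormone secretin, was at 7.57, 12 and 7.23 CPM against 30.8, 37.3 and 36.3 CPM (1.96, adjusted p = 0.186, edgeR). Prkcq, a protein kinase C, was at 35.3, 55.9 and 49.1 CPM against 120, 188 and 184 CPM (1.81, adjusted p = 0.298, edgeR). In each of these the libraries of the genotypes did not overlap. Kcnh6, a potassium channel of the ERG family, and Cacna1f, an L-type calcium channel, had log2 fold changes of 1.21 and 1.77. Dmgdh, a mitochondrial enzyme of choline breakdown, was at 1.16, and 4930579F01Rik at 1.91.

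On the lower side, Sync, which encodes the intermediate filament protein syncoilin, was at 104, 32.8 and 34.2 CPM in WT and at 1.63, 2.16 and 2.43 CPM in FMR1 KO. Its log2 fold change was −4.77 with a standard error of 0.58, and its adjusted p was 0.202 in the edgeR test. WT replicate 1 lay well above the other WT libraries, and without it Sync passed. Klhl32, a kelch-like protein, was at 37.8, 42.5 and 41.4 CPM in WT and at 26.6, 25.4 and 22.0 CPM in FMR1 KO, a log2 fold change of −0.72. Cmah, Grk1 and Hoxd4 had log2 fold changes of −2.47, −3.22 and −2.72, all at low counts, with adjusted p from 0.573 to 0.583 in the edgeR test.

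**Figure D1:**
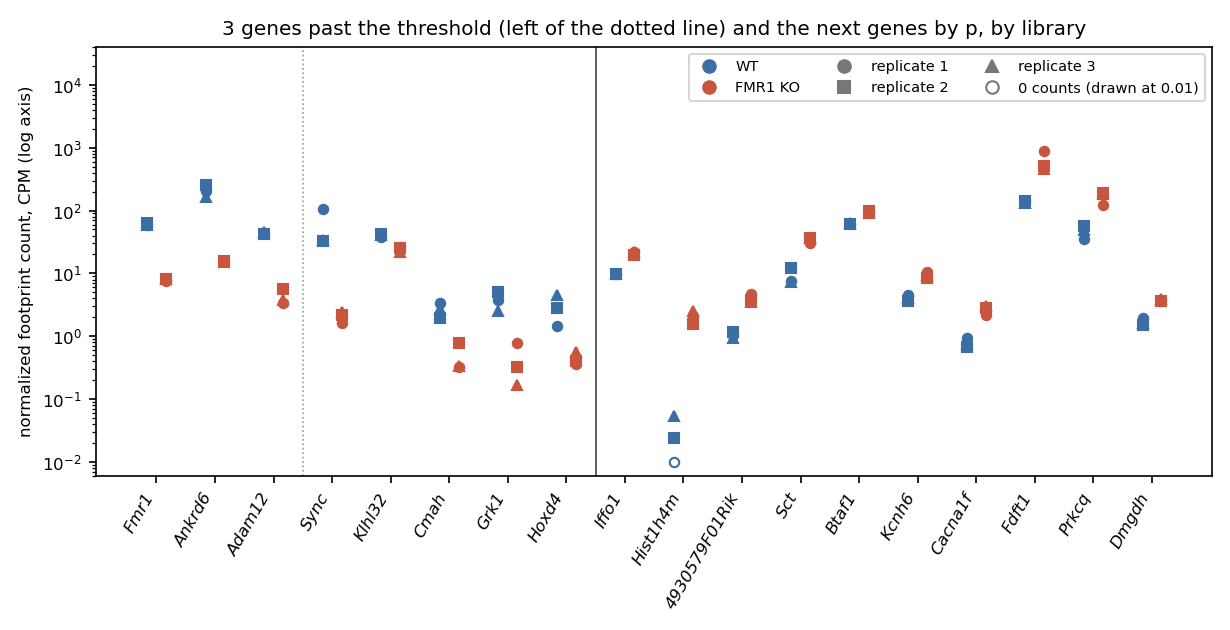
Normalized RPF count (CPM, log axis) of each of the 6 libraries for the 3 genes past the threshold and the genes next by p, lower ones left of the solid line and higher ones right of it. Blue is WT, red is FMR1 KO, and the marker shape gives the replicate. In Fmr1, Ankrd6 and Adam12 the 3 red points lie together far below the 3 blue points.

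**Figure D2:**
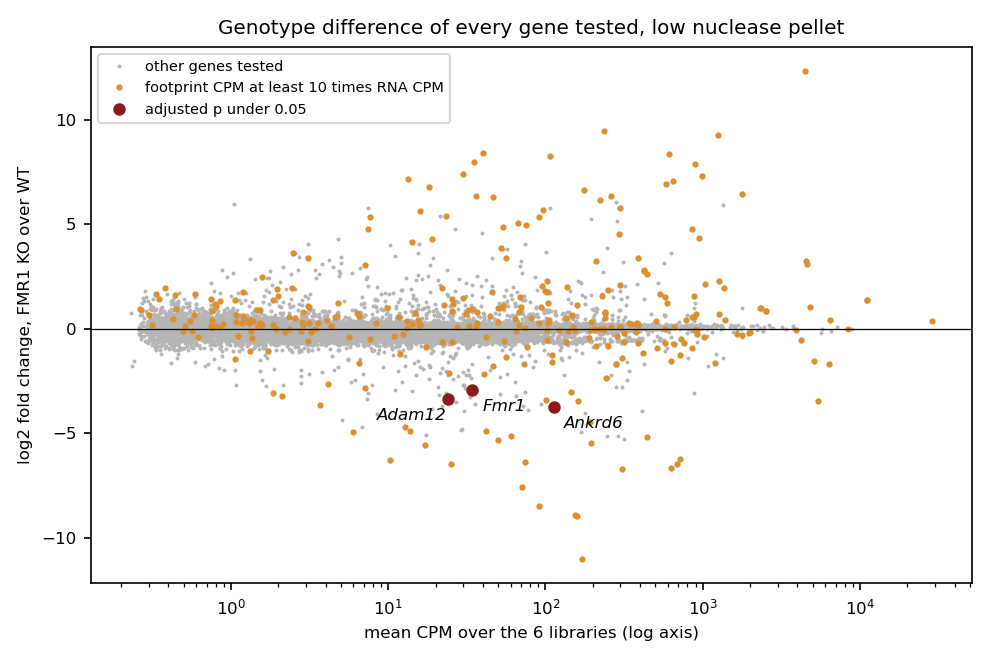
Log2 fold change of FMR1 KO over WT against mean CPM of the 6 libraries (log axis) for each of the 15263 genes tested. Red points are Fmr1, Ankrd6 and Adam12, orange points are genes whose RPF level is at least 10 times their RNA level, and most other genes lie near 0.

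The direction of the named genes was read in other libraries of the study. These share no library with this comparison, although pellet and fraction 5/6 may come from the same brains. Of the named genes, 20 of 22 had the same sign in low nuclease fraction 5/6, 13 of 18 in the standard pellet and 17 of 22 in the RNA-seq libraries. The named genes include Fmr1, the targeted gene, and Wdfy1, Gabra2, Nnt and Ide, chosen because the study's own results name them. These counts are therefore not independent evidence. Genes at an unadjusted p under 0.05 had the same sign in fraction 5/6 in 414 of 659 cases (62.8%), beside 49.6% of all 15212 genes measured in both. In the standard pellet this was 257 of 499 (51.5%), beside 49.2% of 13121. In the RNA-seq libraries it was 378 of 644 (58.7%), beside 58.9% of 15168. At an unadjusted p under 0.01 it was 88 of 116 (75.9%) in fraction 5/6, 51 of 87 (58.6%) in the standard pellet and 63 of 111 (56.8%) in the RNA-seq libraries. No test was run on these shares.

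Wdfy1, Gabra2, Nnt and Ide were followed because the study's own tables name them, so they are not independent evidence. The study gives the WT and FMR1 KO mice as separate lines. For these and all other genes, any further difference between the lines cannot be told apart from the loss of FMRP. Wdfy1, an endosomal WD-repeat protein, was at 40.2, 41.3 and 36.8 CPM in WT and at 4.56, 5.34 and 15.1 CPM in FMR1 KO, a log2 fold change of −2.24 (adjusted p = 0.907, edgeR). FMR1 KO replicate 3 lay above the other FMR1 KO libraries. Gabra2, the alpha 2 subunit of the GABA-A receptor, was at 46.4, 47.1 and 61.8 CPM against 6.55, 17.1 and 9.93 CPM, a log2 fold change of −2.21. Nnt, the proton-pumping transhydrogenase of mitochondria, was at 24, 25.3 and 23.6 CPM against 15.2, 13.9 and 14.1 CPM, a log2 fold change of −0.75. The annotation holds Nnt under 2 identifiers that take nearly the same reads. Ide, the insulin-degrading enzyme, was at 139, 164 and 139 CPM against 272, 316 and 256 CPM, a log2 fold change of 0.93. None of the 4 passed the test here, while none of them overlapped between genotypes. By edgeR, Wdfy1 passed without FMR1 KO replicate 3 (adjusted p = 0.012, and up to 1.00 over its other edgeR alternatives). In the edgeR fit of all 12 pellet libraries Nnt (adjusted p = 0.0051, and up to 0.999 over its other edgeR alternatives) and Ide (0.036, and up to 1.00) passed. DESeq2 gave adjusted p of 0.00019 for Wdfy1, 4.6e-07 for Gabra2, 5.7e-08 for Nnt and 7.6e-08 for Ide. Their log2 fold changes in the RNA-seq libraries were −2.29 for Wdfy1, −1.11 for Gabra2, −0.44 for Nnt and 0.98 for Ide. Btaf1, an ATPase that acts on TATA-binding protein, is the neighbour of Ide on chromosome 19, 256 kb apart. It was at 60.7, 61.7 and 62.3 CPM in WT and at 98.8, 99.5 and 90.6 CPM in FMR1 KO, and its log2 fold changes of 0.65 here and 0.88 in the RNA-seq libraries had the sign of those of Ide.

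The Y-linked genes are transcribed only in males and show male tissue in a pool. Ddx3y was at 35.2, 45.5 and 40.0 CPM in WT and at 54.6, 32.0 and 35.6 CPM in FMR1 KO, and the genotypes also overlapped for Uty, Kdm5d and Eif2s3y. Uba1y, the lowest of the 5 tested, was at 0.41, 0.65 and 0.55 CPM against 0.29, 0.25 and 0.28 CPM without passing the test. In the RNA-seq libraries of the standard preparation, Ddx3y was at 36.5 ± 0.71 CPM in WT and at 0.097 ± 0.038 CPM in FMR1 KO (SD, n = 3 each). RNA-seq and RPF pools thus differed in this respect, and its part in the RNA-seq fold changes given here was not tested.

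The mRNAs crosslinked to FMRP in mouse brain form 2 published lists that the study used on its own pellet samples, so their choice is not independent of these data. In the list of Darnell and colleagues, 749 genes were tested. Their median log2 fold change was 0.003, beside 0.0043 over all genes, with 386 above 0 and 363 below. No member passed the test. At an unadjusted p under 0.05, 15 members were lower (2.00%, beside 1.98% of all genes) and 4 higher (0.534%, beside 2.36%). The 262 tested mRNAs of the list of Maurin and colleagues had a median of 0.016, with 146 above 0, 116 below and none past the threshold. The mean level of the first list, in log2 CPM above the mean of all genes, was 3.44, 3.57 and 3.47 in WT and 3.49, 3.47 and 3.38 in FMR1 KO, so the libraries of the genotypes overlapped. Without FMR1 KO replicate 1 both medians were −0.042. In the standard pellet the medians were −0.090 for the list of Darnell and −0.098 for that of Maurin, beside −0.0043 over all genes. From the standard preparation the study reported fewer RPFs of FMRP targets, a small change that was significant over the whole set.

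The members of these lists with a small unadjusted p, named after their values were seen, had adjusted p from 0.428 to 0.907 in the edgeR test. Rph3a, the vesicle protein rabphilin, was at 206 ± 20.9 CPM in WT and at 387 ± 45.6 CPM in FMR1 KO (SD, n = 3 each), a log2 fold change of 0.91. Tnk2, a tyrosine kinase, was at 385 ± 169 against 1689 ± 829 CPM (2.14), and Shank3, a scaffold of the postsynaptic density, at 121 ± 22.6 against 171 ± 21.4 CPM (0.49). On the lower side, Dot1l, a histone methyltransferase, was at 776 ± 1253 against 50.5 ± 12.8 CPM (−3.94), a value carried by WT replicate 2, without which it was −0.084, and Samd4b and Tns3 had log2 fold changes of −0.51 and −0.22. Reln, the secreted glycoprotein reelin that guides neuronal layering, was at 124, 169 and 194 CPM in WT and at 69.9, 103 and 95.9 CPM in FMR1 KO, a log2 fold change of −0.86. Lrp1, an endocytic receptor, was at 259 ± 52.8 against 143 ± 33.2 CPM (−0.86). The giant cadherins Fat1, Fat3 and Fat4 were at −0.72, −0.65 and −0.49 and the semaphorin receptors Plxna2, Plxnb1 and Plxnd1 at −0.74, −0.60 and −0.35 on the log2 scale. Ncam1, the neural cell adhesion molecule, was at 786 ± 106 against 486 ± 160 CPM (−0.69).

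The third study list holds mRNAs whose ribosomes stay in place when initiation is blocked in neurons, here called run-off resistant. Of its members 185 were tested, with a median log2 fold change of −0.10, 81 above 0 and 104 below. None passed the test. At an unadjusted p under 0.05, 7 were lower (3.78%, beside 1.98% of all genes) and 0 were higher (0%, beside 2.36%). The libraries did not overlap in 13 lower members (7.03%, beside 4.36%) and 5 higher ones (2.7%, beside 5.73%). The lower members at that p were Reln, Lrp1, Chl1, L1cam, Ncam1, Sez6l2 and Sez6l, with log2 fold changes from −0.86 to −0.63. The mean level of the list was 4.51, 4.62 and 4.67 log2 units above that of all genes in WT and 4.22, 4.58 and 4.35 in FMR1 KO. The genotypes overlapped through FMR1 KO replicate 2, and without FMR1 KO replicate 1 the list's median was −0.12.

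Gene lists by function were then described by their medians beside the median of all genes, 0.0043. Of the 34 function and study lists, 33 overlapped between genotypes in their mean level. The FMRP family was lower without overlap, through Fmr1, and Fmr1 was the only member of any list past the threshold.

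With all 6 libraries, lists of membrane and secreted proteins had the lowest medians among those of nuclear genes. This order did not hold with single libraries left out. The replication-dependent histones had the lowest median of them, −0.59, without FMR1 KO replicate 3. Without FMR1 KO replicate 1 the histones, at −0.22, lay below all of these lists except collagens and laminins. The glutamate receptors, which carry fast excitatory transmission, had a median of −0.41, with 19 of 21 below 0. Grin2b, a subunit of the NMDA receptor, was at 259, 271 and 304 CPM in WT and at 126, 274 and 188 CPM in FMR1 KO. Gria2, a subunit of the AMPA receptor, was at 129, 138 and 186 CPM against 65.2, 151 and 118 CPM. FMR1 KO replicate 1 was the lowest library for both, and FMR1 KO replicate 2 lay among the WT values. The GABA-A receptors had a median of −0.39 (11 of 14 below 0) and the voltage-gated channels one of −0.36 (26 of 34 below 0). The P-type pumps and calcium release channels, which move ions across membranes, had a median of −0.54, with 14 of 15 below 0. Collagens and laminins, proteins of the extracellular matrix, had a median of −0.51, with 19 of 20 below 0. Col1a1 was at 30.4, 31.3 and 47.3 CPM against 10.6, 34.0 and 23.4 CPM.

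These medians moved with single libraries. Without FMR1 KO replicate 1 they were −0.17 for glutamate receptors, −0.12 for GABA-A receptors, −0.15 for voltage-gated channels, −0.21 for P-type pumps and −0.25 for collagens and laminins. Without FMR1 KO replicate 2 they were −0.74, −0.67, −0.64, −0.87 and −0.75, and without WT replicate 3 they were −0.24, −0.17, −0.20, −0.31 and −0.33. The sign stayed below 0 for these 5 lists in each of the 19 alternative fits. In the standard pellet the medians were 0.065, −0.14, −0.020, −0.12 and 0.22 in the same order.

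Mitochondrially encoded mRNAs, translated on ribosomes inside mitochondria, had the lowest median of the lists plotted, −0.77, with 7 of 7 tested genes below 0 at low counts. Cytochrome oxidase subunit mt-Co1 was at 3.89, 9.10 and 5.45 CPM in WT and at 1.67, 6.39 and 2.76 CPM in FMR1 KO, and the genotypes overlapped. The list's median was −0.38 without WT replicate 2, −0.46 without FMR1 KO replicate 1 and −1.44 without FMR1 KO replicate 2. The replication-dependent histones had a median of −0.34 with 27 of 29 below 0, although Hist1h4m lay in the opposite direction. Their median was −0.19 without WT replicate 1, −0.22 without FMR1 KO replicate 1 or 2 and −0.59 without FMR1 KO replicate 3. Hist1h4n, another histone H4 gene, was at a mean of 1.33 CPM in WT and 0.34 CPM in FMR1 KO without overlap. Its log2 fold change was −1.89 (adjusted p = 0.738, edgeR), and its relation to the rise of Hist1h4m was not tested. Most tested cytosolic ribosomal proteins were slightly below 0, 69 of 80, with a median of −0.07 that ran from −0.21 without FMR1 KO replicate 3 to −0.0097 without FMR1 KO replicate 1.

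Several other lists had medians slightly above 0. The synaptic vesicle cycle had a median of 0.12 with 22 of 28 above 0. Motor proteins (19 of 23 above 0) and chaperones (16 of 19) also had medians of 0.12, and the binding proteins of neuronal RNA granules one of 0.11 (28 of 33). Without FMR1 KO replicate 1 the medians of these last 3 lists were −0.011, −0.007 and −0.011, and that of the synaptic vesicle cycle was 0.096. Among the mRNAs that neuronal granules are known to carry, Map1b, a microtubule-associated protein, was at 8656, 10029 and 8092 CPM in WT and at 11843, 7216 and 7799 CPM in FMR1 KO. The log2 fold change of Map1b was 0.00 with a standard error of 0.33, so a difference within that error was not detectable. Tubb2b, a neuronal beta-tubulin, was at 2269, 2689 and 1895 CPM against 2970, 2007 and 1978 CPM. The partners of FMRP in the CYFIP and WAVE complex, which controls actin branching, had a median of 0.06, with Cyfip2 at 560, 580 and 559 CPM against 626, 595 and 555 CPM, and the median was 0.022 without FMR1 KO replicate 1. Factors of ribosome stalling and rescue had a median of 0.09, with 11 of 17 above 0, and one of −0.056 without FMR1 KO replicate 1.

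**Figure D3:**
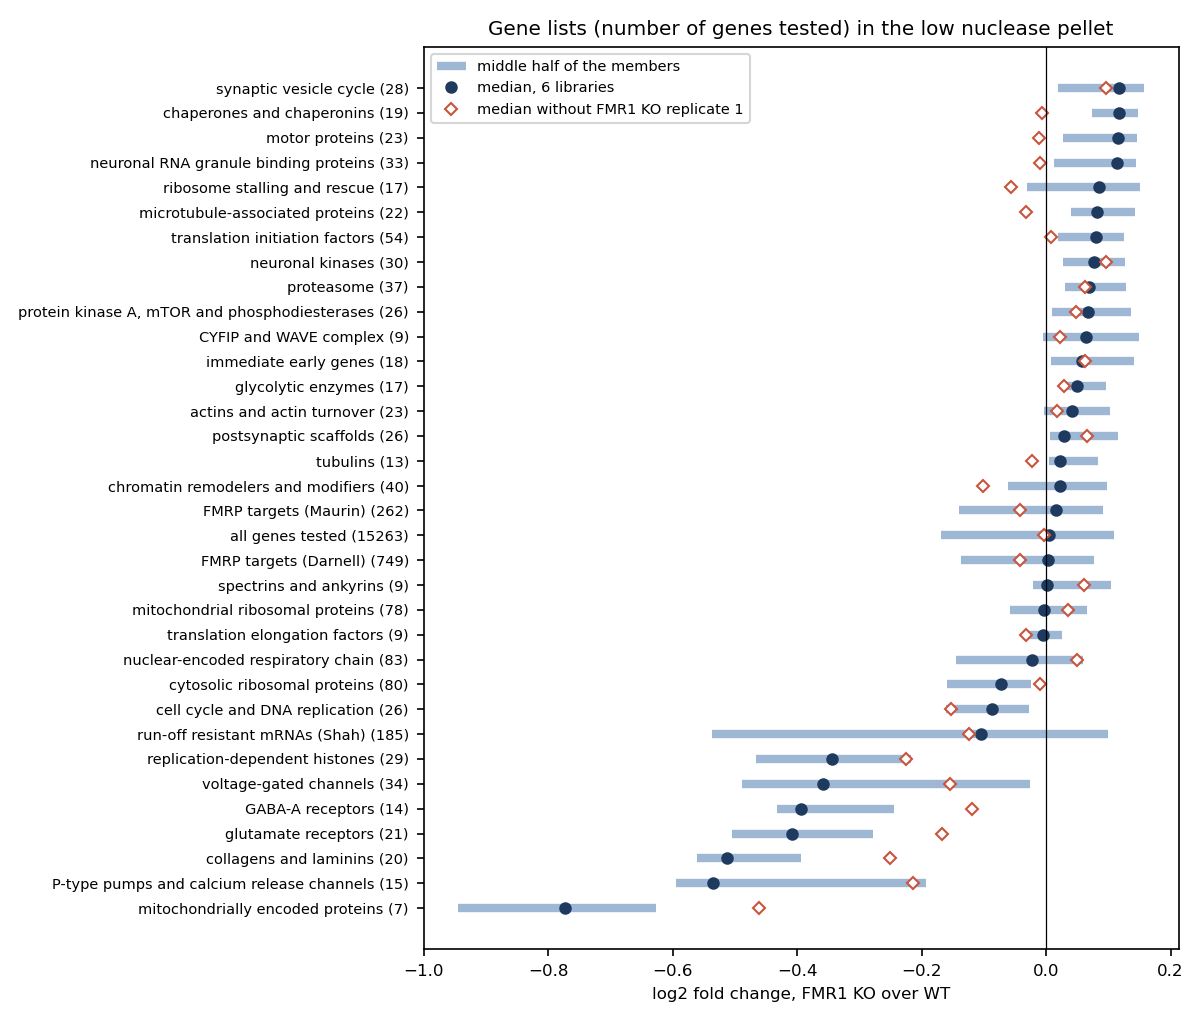
Median log2 fold change (FMR1 KO over WT) of each gene list in the low nuclease pellet, with the number of genes tested in brackets. Bars span the middle of the members from the 25th to the 75th percentile, dark points are the medians of all 6 libraries, and open diamonds are those without FMR1 KO replicate 1. The lists of receptors, channels, pumps and matrix proteins lie left of 0 and move toward 0 without that library.

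Marker genes of brain cell types were read to see whether the pools differed in makeup. No list had a member at 0. The summed CPM of pan-neuronal markers ran from 6401 to 7432 in WT and from 6615 to 7879 in FMR1 KO, and the genotypes overlapped for excitatory and inhibitory neurons, progenitors, astrocytes, oligodendrocyte lineage, microglia and endothelial cells. FMR1 KO replicate 1 had the lowest sums of the 6 libraries for astrocytes (839 CPM), oligodendrocyte lineage (434 CPM), choroid plexus (67.2 CPM), endothelial (33.3 CPM), erythroid (17.7 CPM) and liver genes (18.6 CPM). Single genes weighed on these sums. The astrocyte gene Slc1a2 was at 880, 674 and 768 CPM in WT and at 92.2, 958 and 192 CPM in FMR1 KO. The choroid plexus and liver lists share Ttr, and only 1 gene of the liver list was tested, so these 2 sums are not separate observations. Clic6, another choroid plexus gene, was highest in FMR1 KO replicate 1, at 10.9 CPM. The muscle sum was low in replicate 1 of both genotypes and alike in same-numbered libraries, at 15.3, 222 and 418 CPM in replicates 1 to 3 of WT and at 12.2, 207 and 428 CPM in those of FMR1 KO. A single gene, Mylpf, carried most of this sum outside replicate 1, so it does not describe the muscle list as a whole. Myh3 of the same list was at 5.97, 4.79 and 4.61 CPM in WT and at 3.42, 4.22 and 4.33 CPM in FMR1 KO. FMR1 KO replicate 1 had the highest sums for pan-neuronal (7879 CPM), excitatory (1018 CPM), inhibitory (697 CPM) and progenitor markers (749 CPM). Erythroid genes were lower in FMR1 KO without overlap, at 17.7 to 22.8 CPM in sum against 25.0 to 34.7 CPM in WT, with Hbb-bt, a beta globin, at 3.52, 3.45 and 3.87 CPM against 2.03, 2.27 and 2.37 CPM. The part of these differences in the fold changes above was not tested.

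A further set of genes carried very many RPFs for their RNA. In 319 of 15252 genes the pellet CPM was at least 10 times the RNA-seq CPM, and these genes held 13.3%, 17.1% and 17.9% of the normalized counts in WT and 19.9%, 19.7% and 22.4% in FMR1 KO. Of them, 90 (28.2%) had an unadjusted p under 0.05, beside 3.82% of the other 14933 genes. Their median absolute log2 fold change was 0.90, beside 0.125. The set was chosen by the pellet mean, so a gene with 1 very high library can enter it through that library, and these shares and sizes are no test.

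Single libraries decided many of these values. Ubtf, a transcription factor of ribosomal RNA genes, was at 14102, 14492 and 985 CPM in WT and at 1231, 703 and 804 CPM in FMR1 KO, so WT replicate 3 lay with the FMR1 KO libraries. Itga9, an integrin subunit, was steady, at 7574 to 9693 CPM in WT and 7274 to 9085 CPM in FMR1 KO. Ube4b, a ubiquitin ligase, was at 13011, 12608 and 3370 CPM in WT and 3226, 2403 and 3232 CPM in FMR1 KO without overlap, and did not pass the test. Ryr1, a calcium release channel of the set, was at 1817 CPM in WT replicate 3 and at 5.35 to 6.46 CPM elsewhere. Outside the set, Wasf3, a member of the WAVE complex, was at 7831 CPM in FMR1 KO replicate 3 and at 40.5 to 47.0 CPM elsewhere. When the 319 genes were left out, an alternative chosen after seeing the data, Fmr1, Ankrd6 and Adam12 were again the 3 genes that passed.

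**Figure D4:**
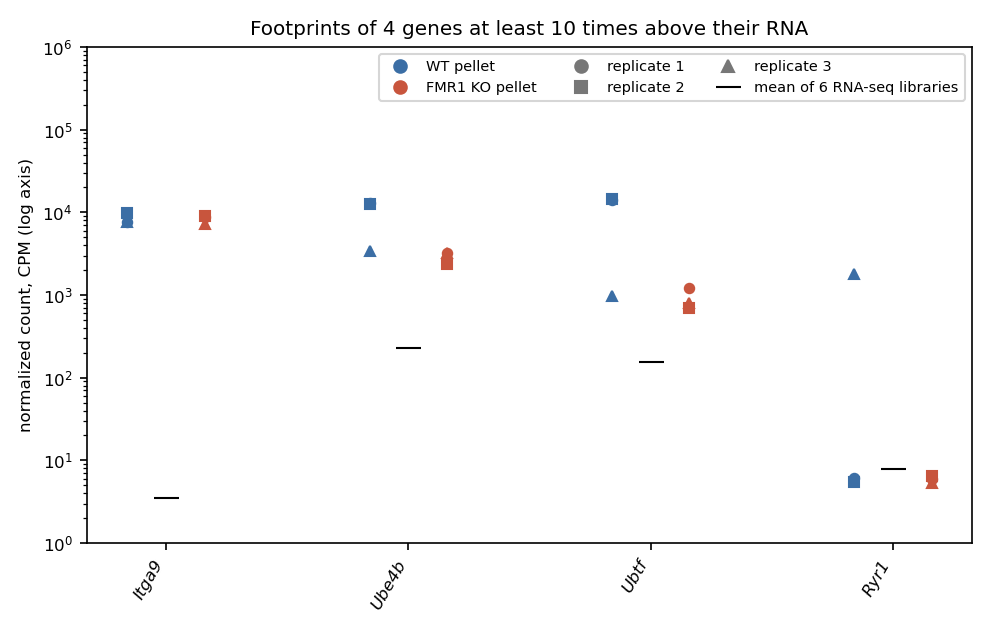
Normalized RPF count (CPM, log axis) by library for Itga9, Ube4b, Ubtf and Ryr1, genes at least 10 times above their RNA, with the mean CPM of the 6 RNA-seq libraries as a black line. Blue is WT, red is FMR1 KO, and the marker shape gives the replicate. Itga9 is steady across libraries, whereas WT replicate 3 lies far from the other WT libraries in Ube4b, Ubtf and Ryr1.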

How the data were processed

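The authors deposited raw counts per gene for the 36 libraries. Per the labels and the study's methods, the authors trimmed reads with cutadapt 2.10, removed rRNA and non-coding RNA with Bowtie2 2.3.5, aligned to GRCm38 with STAR 2.7.8a, removed duplicates with Picard and SAMtools 1.19.2 and counted with featureCounts 2.2.0. The strand setting of the counting is not given in the sources used here, so overlapping genes can share reads: 165 overlapping pairs had counts within 5% of each other. None of the 3 genes called was in such a pair. Deposited tables of peaks were not used, and 2 columns of the count table without name or values were ignored.

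From 16614 genes, Cdk8 and 26 non-coding genes (GENCODE M21) were dropped, because Cdk8 took a large and varying share of the counts in other libraries. Genes were filtered with filterByExpr, scaled by TMM (factors 0.924 to 1.09) and tested with edgeR 4.0.16 (limma 3.58.1, R 4.3.3), with Benjamini-Hochberg adjustment over all genes tested. CPM values are scaled by TMM for the 6 libraries of this comparison. The fold changes are edgeR's on the log2 scale. DESeq2 1.42.0 was an alternative. Other alternatives were the normalization, the filter, Cdk8 kept, a replicate block, all pellet libraries in 1 fit and each library or replicate number left out. No 2 libraries agreed within sampling noise.

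RNA-seq values are those of the standard preparation, since in 3 of the 6 low nuclease RNA libraries 10 genes took over 81% of the counts. The named genes were Fmr1, Fxr1, Fxr2, Wdfy1, Nnt, Gabra2, Ide, the Y-linked genes, the genes past the threshold filled to 10 per direction by p, and for each list its members past the threshold, then those with most counts, up to 4. For each interaction the number was 5 per direction. Of the list members, those with distinct values are printed, and some items are not reported here. The members and the gene lists were chosen with earlier results of these data known. Intervals cover counting error only.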

Additional observations from a re-analysis of the deposited data

Results flagged for a closer look

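The genotype difference of 5 genes differed between kinds of library by an interaction test (edgeR quasi-likelihood, adjusted over all genes tested). Between preparations, Ankrd6 differed by −3.74 and Ppil1 by −3.11 on the log2 scale (low nuclease pellet minus standard pellet, adjusted p = 1.3e-04 and 0.021). Between fractions of the low nuclease preparation, Fblim1 differed by 4.15, Spen by 2.24 and Adam12 by −3.36 (pellet minus fraction 5/6, adjusted p = 0.0025, 0.047 and 0.045). For Ppil1, Fblim1 and Spen the difference lay in the libraries outside the low nuclease pellet. Leaving out FMR1 KO replicate 1, chosen after seeing the data, gave log2 values of −3.76 for Ankrd6, −3.19 for Ppil1 and 4.08 for Fblim1, which passed, and 2.1 for Spen and −3.21 for Adam12, which did not (both adjusted p = 0.0998, edgeR). Without replicate 1, 2 or 3 of every group in turn, Ankrd6 passed each time, Fblim1 passed without replicate 1, and Ppil1, Spen and Adam12 passed in none.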

How the results depend on the processing

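The count of genes past the threshold in the low nuclease pellet, 3, was within 1.5 times under 9 of the 19 alternatives, among them both filters, Cdk8 kept, all biotypes, and library size alone, under which the median of all genes moved to −0.097 and 2 genes passed. DESeq2 called 89 genes (57 higher), 1 fit of all 12 pellet libraries called 14 (8 higher), and the replicate block called 0 (576 without the adjustment for multiple tests). Across fits that left out libraries, the count ran from 1 to 11, with 9 without FMR1 KO replicate 1, 11 without FMR1 KO replicate 3 and 1, Glb1l, without replicate 3 of both genotypes. Fmr1 passed in 16 of 18 edgeR alternatives (adjusted p from 7.2e-06 to 0.081), Ankrd6 in 14 and Adam12 in 10, and the log2 fold change stayed between −3.01 and −2.88, −3.91 and −3.57, and −3.63 and −3.20. The deviations of same-numbered libraries of the genotypes had correlations of 0.084, −0.125 and 0.195 across genes. Only that of replicate 3 was above the required minimum of 0.1, and the numbers were not treated as pairs in the main fit. They may still mark something shared, since the study's methods give the replicates different linkers and Mylpf, a muscle myosin light chain, was at 0.16, 210 and 405 CPM in WT and 0.20, 195 and 414 CPM in FMR1 KO. Under the block the adjusted p by edgeR was 0.081 for Fmr1, 0.104 for Ankrd6 and 0.234 for Adam12. For the interaction with preparation (2 genes), library size alone called 5, DESeq2 90, the replicate block 3, and leaving out libraries 6 to 21. For that with fraction (3 genes) they called 1, 92, 5 and 2 to 9. With libraries left out, the log2 fold change of Wasf3 ran from −0.082 to 6.59, of Lama1 from −0.31 to 5.72 and of Ryr1 from −7.35 to 0.092, each through 1 library of replicate 3. Of 665 list medians, 12 moved beyond the spread between libraries, and 1503 of 1509 values of single genes kept their direction. The distance ratio was 1.02 to 1.06. Genes with few reads set the limit of depth: Hist1h4m rests on 3 reads in WT. The robust estimate of the spread, the set of genes rich in RPFs left out and the interactions without FMR1 KO replicate 1 were chosen after seeing the data. The causes of these changes were not tested.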
